A study of Sus scrofa with 4 samples.

Results

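The Toll-like receptors TLR1 to TLR10 were followed in the ileum, the section of small intestine before the colon, of suckling piglets with low or high weight gain. Members were the array probes whose RefSeq transcript accession, with its version dropped, belonged to one of these 10 pig genes in the NCBI gene table of Sscrofa11.1. The rule found 13 probes among 43603, and they read 9 of the 10 genes. TLR3 had 2 probes, TLR4 had 4 probes and TLR1, TLR2, TLR6, TLR7, TLR8, TLR9 and TLR10 had 1 each. No probe could be assigned to TLR5, the receptor for flagellin, so it is not analysed here. All 13 probes lay well above background on all 4 arrays by the scanner software's flag, and none of the 13 passed the test for a difference between the groups.

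The low-gain group was 2 RNA samples, each labelled as a pool of ileum from 2 piglets with low weight gain, and the high-gain group was 2 RNA samples, each labelled as a pool from 3 piglets with high weight gain. All piglets were 16 days old, were nursed by their dams, and came from Yorkshire × Landrace dams and Duroc sires. Each sample carries the letter a or b, was labelled with Cy3 and was hybridised to 1 array with 1 colour. The labels leave unsaid whether the letters mark different pools or a pool hybridised more than once. The p-values therefore cover the spread among these arrays only, and that spread may be technical. A design note with the series speaks of weight at birth rather than weight gain, and the groups here follow the sample labels.

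Toll-like receptors are membrane proteins whose leucine-rich repeats bind conserved microbial molecules and whose cytoplasmic TIR domain recruits adaptor proteins that lead to NF-kB and interferon regulatory factors. TLR1, TLR2, TLR4, TLR5, TLR6 and TLR10 act mainly at the cell surface, while TLR3, TLR7, TLR8 and TLR9 act in endosomes and sense nucleic acids. In the intestine they are found on epithelial cells and on macrophages, dendritic cells and B cells of the lamina propria and Peyer's patches, where they meet bacterial products of the lumen. In the gene table TLR10, TLR1 and TLR6 lie next to each other with no other protein-coding gene between them, and TLR7 lies within the span of TLR8. The table also lists TLR6 as a synonym of TLR1 and TLR7 as a synonym of TLR8, so probes were assigned by accession and not by name. Related receptors can cross-hybridise, and the values of TLR1, TLR6 and TLR10 are uncertain in that respect.

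Of 43803 spots that were not controls, 32835 to 33972 per array were flagged as well above background. Low-gain array a had a median coefficient of variation of 9.04% among repeat spots, outside the scanner software's quality range, against 5.72% on low-gain array b and 6.10% and 6.12% on the high-gain arrays. Over the tested probes the median absolute log2 difference was 0.143 between the low-gain arrays and 0.151 between the high-gain arrays. Comparing a low-gain with a high-gain array gave 0.175 to 0.300. The tissue label was checked against ileal enterocyte markers: 4 of 9 had a named probe, and all 4 (ANPEP, FABP2, APOA4 and the ileal bile acid binding protein gene FABP6) were well above background on every array. GAST, the gastrin gene and the 1 stomach or colon marker of 6 with a named probe, was also well above background on every array. Since most spots carried this flag, the check cannot tell the ileum from other gut tissue.

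Levels are given as log2 processed signal minus the array's 75th percentile, so that 0 is the signal at that percentile. Levels of different probes cannot be set against each other, since probes bind with different strength, and only values of 1 probe are compared. Differences are low gain minus high gain on this log2 scale with the standard error (SE) of the limma fit, and adjusted p-values are Benjamini-Hochberg values over all 33265 tested probes. A probe was tested if it was well above background on both arrays of at least 1 group, and a difference passed at an adjusted p under 0.05. With 2 arrays a group, an exact permutation test of a single probe cannot give a two-sided p under 0.333.

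Of the 13 probes, 0 passed the limma test, where 80 of all 33265 tested probes did (0.24%), each with an absolute log2 change of at least 1.49. The adjusted p-values of the 13 probes ran from 0.196 to 0.944. At an unadjusted p under 0.05 there were 4 (TLR2, TLR9, 1 probe of TLR3 and 1 probe of TLR4), where 18.4% of all tested probes had one. With a prior variance that followed signal intensity, which called 3.76% of all probes, 0 of the 13 passed and the lowest adjusted p was 0.0747. Both low-gain arrays lay above both high-gain arrays for 3 probes, where 27.6% of all tested probes did so, and below both for 5 probes, where 26.9% did so. That made 8 of 13 with groups apart, where 54.5% of all tested probes were apart, and the groups overlapped for the other 5. These shares count probes, and the probes of TLR3 and of TLR4 share a gene.

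**Figure D1:**
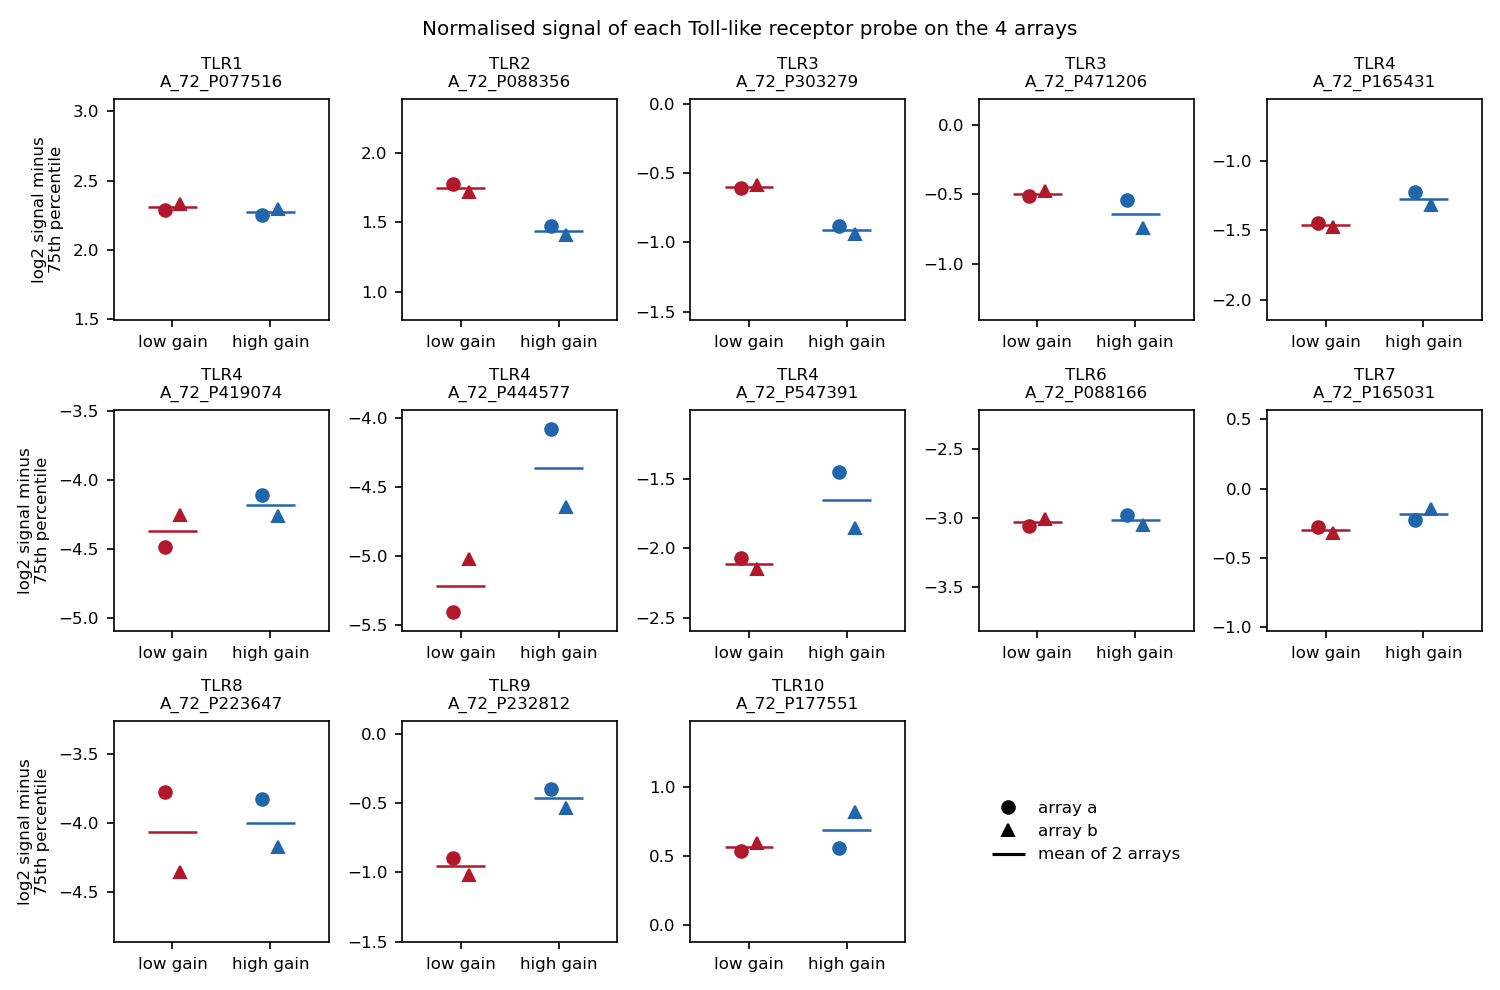
Each panel shows 1 probe, with the log2 processed signal minus the array's 75th percentile on the vertical axis (every panel spans the same range) and the 2 groups on the horizontal axis. Circles are arrays a, triangles are arrays b and lines are means of 2 arrays; the groups are apart for TLR2, both TLR3 probes, 3 of 4 TLR4 probes, TLR7 and TLR9.

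Among the cell-surface receptors for lipopeptides, TLR2 is the shared partner that pairs with TLR1 or TLR6. Its probe (A_72_P088356, transcript NM_213761) read 1.78 and 1.72 on low-gain arrays a and b, against 1.47 and 1.41 on high-gain arrays a and b. Both low-gain arrays were above both high-gain arrays, with a gap of 0.249 between the groups and gaps of 0.0555 and 0.0656 within the low-gain and high-gain groups. The log2 difference was 0.31 ± 0.10 (SE, n = 2 arrays per group, 95% interval 0.03 to 0.59, limma adjusted p = 0.247), or 1.24-fold, larger in size than that of 65.9% of all tested probes. The interval is for this probe alone, and TLR2 did not pass the test over all probes.

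TLR1, which with TLR2 recognises triacylated lipopeptides, was read by probe A_72_P077516 (transcript NM_001031775). It read 2.29 and 2.33 on the low-gain arrays, against 2.25 and 2.30 on the high-gain arrays. The groups overlapped, and the difference was 0.04 ± 0.10 with a 95% interval of -0.24 to 0.31 (limma adjusted p = 0.849). TLR6, which with TLR2 recognises diacylated lipopeptides, was read by probe A_72_P088166 (transcript NM_213760) at -3.06 and -3.00 on the low-gain arrays and at -2.98 and -3.05 on the high-gain arrays. These also overlapped, with a difference of -0.02 ± 0.10 and an interval of -0.29 to 0.26 (limma adjusted p = 0.944). The intervals of TLR1 and TLR6 leave room for differences in either direction of up to about 0.3, the size seen for TLR2.

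TLR10, a relative of TLR1 and TLR6 that in humans is found mainly on B cells, was read by probe A_72_P177551 (transcript NM_001030534). It read 0.53 and 0.60 on the low-gain arrays, against 0.56 and 0.82 on the high-gain arrays. High-gain array b stood above the other 3 arrays, and high-gain array a lay between the low-gain arrays. The difference was -0.12 ± 0.14 (interval -0.50 to 0.25, limma adjusted p = 0.646), and it was 0.01 without high-gain array b.

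TLR4 is the receptor for bacterial lipopolysaccharide, which it binds together with the secreted protein LY96 (MD-2) after transfer by CD14. All 4 of its probes carry transcript NM_001113039 and all 4 had a lower mean in low gain, with log2 differences of -0.85 to -0.18. The probe with the highest signal of the 4, A_72_P165431, read -1.45 and -1.48 on the low-gain arrays, against -1.22 and -1.32 on the high-gain arrays. The groups were apart by 0.131, and the difference was -0.19 ± 0.10 (interval -0.48 to 0.09, limma adjusted p = 0.391).

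The other TLR4 probes differed more between arrays of 1 group. Probe A_72_P547391 read -2.07 and -2.15 on the low-gain arrays, against -1.45 and -1.85 on the high-gain arrays, a difference of -0.46 ± 0.17 (limma adjusted p = 0.283). High-gain array a was the highest, and without it the difference was -0.26. Probe A_72_P444577 read -5.41 and -5.02 on the low-gain arrays, against -4.08 and -4.64 on the high-gain arrays, and its difference of -0.85 ± 0.26 (interval -1.57 to -0.14, limma adjusted p = 0.230) was the largest of the 13 in size. High-gain array a was again the highest, and without it the difference was -0.57. Probe A_72_P419074 read -4.48 and -4.25 on the low-gain arrays, against -4.11 and -4.26 on the high-gain arrays, with overlapping groups and a difference of -0.18 ± 0.14 (limma adjusted p = 0.507). This difference was -0.07 without low-gain array a, -0.30 without low-gain array b and -0.11 without high-gain array a. These last 2 probes were dim, with a median spot signal of 2.11 to 2.88 times the local background over the 4 arrays, against 9.29 to 11.2 times for A_72_P165431 and 6.50 to 11.5 times for A_72_P547391. With normexp background correction (bright backgrounds replaced, an alternative added after the data were seen), the differences of the 2 dim probes were -0.10 and -0.03.

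Among the endosomal receptors, TLR3 binds double-stranded RNA. Its probe A_72_P303279 (transcript NM_001097444) read -0.61 and -0.59 on the low-gain arrays, against -0.88 and -0.94 on the high-gain arrays. The groups were apart by 0.272, more than the gaps of 0.0207 and 0.0575 within the low-gain and high-gain groups. The difference was 0.31 ± 0.10 (interval 0.04 to 0.58, limma adjusted p = 0.240), or 1.24-fold. The other TLR3 probe, A_72_P471206 on the same transcript, read -0.51 and -0.48 on the low-gain arrays, against -0.54 and -0.74 on the high-gain arrays. It had the same direction with a smaller difference of 0.15 ± 0.12 (interval -0.18 to 0.48, limma adjusted p = 0.539), and the gap between the groups was 0.0345. Without high-gain array b the difference was 0.05, and without high-gain array a it was 0.25.

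TLR9 senses DNA with unmethylated CpG motifs, which is common in bacteria. Its probe (A_72_P232812, transcript NM_213958) read -0.89 and -1.02 on the low-gain arrays, against -0.40 and -0.53 on the high-gain arrays. Both low-gain arrays were below both high-gain arrays, with a gap of 0.361 between the groups and gaps of 0.123 and 0.138 within the low-gain and high-gain groups. The difference was -0.49 ± 0.12 (interval -0.81 to -0.17, limma adjusted p = 0.196), which corresponds to 1.41-fold more signal in high gain. It had the lowest adjusted p of the 13 probes, and its absolute change was larger than that of 83.4% of all tested probes. Leaving out any 1 array gave differences between -0.56 and -0.42.

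TLR7 and TLR8 both sense single-stranded RNA. TLR7 (A_72_P165031, transcript NM_001097434) read -0.28 and -0.32 on the low-gain arrays, against -0.23 and -0.15 on the high-gain arrays. The low-gain arrays were the lower ones by 0.0544, and the difference was -0.11 ± 0.10 (interval -0.39 to 0.17, limma adjusted p = 0.577). TLR8 (A_72_P223647, transcript NM_214187) read -3.77 and -4.35 on the low-gain arrays, against -3.83 and -4.17 on the high-gain arrays. Arrays of 1 group differed by more than the group means did, and the difference was -0.06 ± 0.26 (interval -0.78 to 0.65, limma adjusted p = 0.904). TLR8 was dim, with a median spot signal of 2.40 to 2.62 times the local background, and its interval is the widest of the 13 after that of TLR4 probe A_72_P444577.

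**Figure D2:**
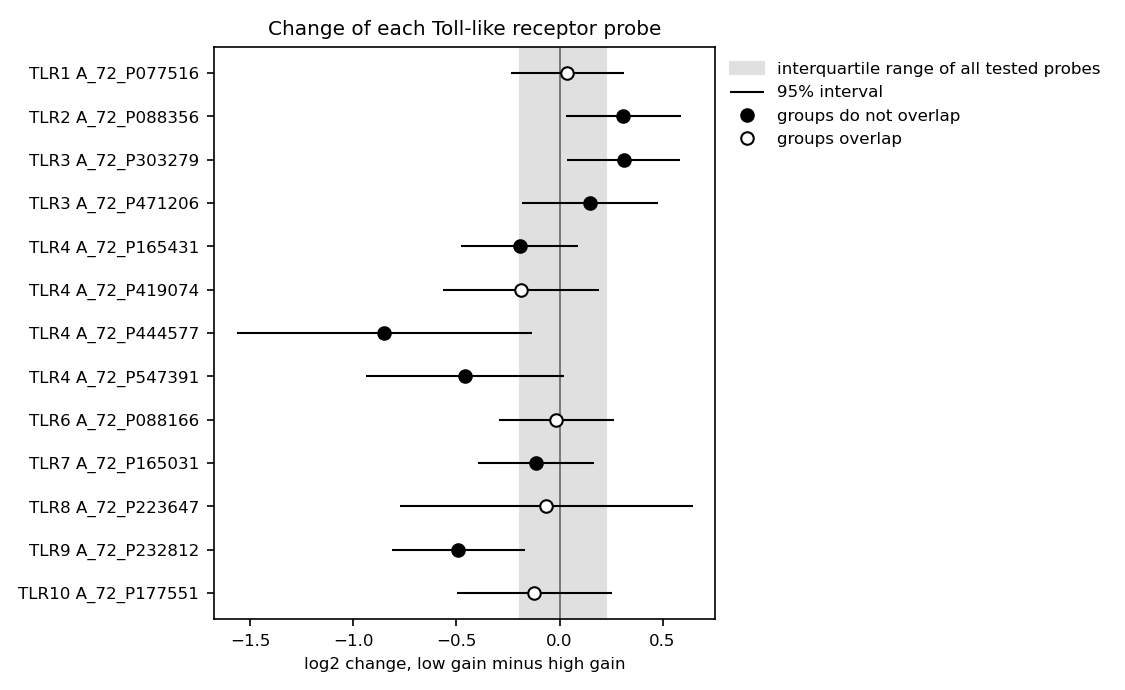
Points are log2 differences of the 13 probes (horizontal axis, low gain minus high gain) and lines are 95% intervals of the limma fit, with filled points where the groups did not overlap. The grey band is the interquartile range of all 33265 tested probes (-0.19 to 0.22); the intervals of TLR2, 1 TLR3 probe, 1 TLR4 probe and TLR9 leave out 0, and none of the 13 passed after adjustment.

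With 1 probe per gene, the one of highest mean signal, the 9 genes had a median log2 difference of -0.06, against 0.02 over all 2158 genes so represented. Of the 9 genes, 3 had a higher and 6 a lower mean in low gain. Groups were apart for 5 of the 9, where 61.8% of the 2158 genes had groups apart. Past the limma test were 0 of 9 (2 at an unadjusted p under 0.05), where 0.417% of genes passed and 21.6% had an unadjusted p under 0.05. With the intensity trend 7.88% of genes passed and 0 of the 9 TLR genes did.

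The other genes of the pathway were taken from 5 lists. Over all 2158 genes, 0.417% passed, 21.6% had an unadjusted p under 0.05 and 61.8% had groups apart. Of the coreceptors, chaperones and decoys, 9 of 12 had a named probe, 0 passed in either direction and 1 had an unadjusted p under 0.05, with a median of -0.09. LY86 (MD-1) and its partner CD180, a TLR-like receptor of B cells, had the largest differences in size. LY86 read 2.03 and 2.05 on the low-gain arrays, against 2.33 and 2.57 on the high-gain arrays (-0.41 ± 0.13, limma adjusted p = 0.240). CD180 read 2.04 and 2.17 on the low-gain arrays, against 2.31 and 2.46 on the high-gain arrays (-0.29 ± 0.12, limma adjusted p = 0.310). CD14 differed by -0.25 ± 0.14 and LY96 by -0.24 ± 0.11. The groups of the 9 genes were apart with low gain lower for 4, these same genes, and apart with low gain higher for 1, where 29.2% of all genes tested were apart with low gain lower. The CD14 difference was -0.38 without low-gain array a and -0.11 without low-gain array b. HSP90B1 and CNPY3, which help TLRs to fold, differed by 0.19 ± 0.16 and 0.06 ± 0.10, and HSP90B1 by 0.0016 without high-gain array a.

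Of the adaptors and kinases, 6 of 17 had a named probe and 0 passed, with a median of -0.08. An unadjusted p under 0.05 was found for 4 of the 6, where 21.6% of all genes had one. The common adaptor MYD88 read -3.21 and -3.13 on the low-gain arrays, against -1.79 and -2.55 on the high-gain arrays (-1.0 ± 0.29, limma adjusted p = 0.221). As with all 4 TLR4 probes, high-gain array a was the highest, and without it the MYD88 difference was -0.62. TICAM2 (TRAM), an adaptor of TLR4, differed by 0.41 ± 0.13, the ubiquitin ligase gene TRAF6 by 0.36 ± 0.11 and the kinase gene MAP3K7 (TAK1) by -0.32 ± 0.10. Their groups did not overlap, where 61.8% of all genes had groups apart, and these genes were picked for large differences. The 4 largest differences of this list went in both directions.

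Of the transcription factors and their inhibitors, 11 of 17 had a named probe and 0 passed, with a median of -0.13. An unadjusted p under 0.05 was found for 5 of the 11, where 21.6% of all genes had one. IKBKB, a kinase subunit that frees NF-kB, differed by 0.80 ± 0.12 (limma adjusted p = 0.144), but its other probe gave -0.63. RELA differed by -0.73 ± 0.25, the regulatory subunit gene IKBKG by -0.54 ± 0.16 and NFKB1 by -0.46 ± 0.16. High-gain array a was the highest for these 3 genes, and without it the differences were -0.43 for RELA, -0.36 for IKBKG and -0.28 for NFKB1. The other probes of RELA (-0.91) and IKBKG (-0.77) had the same sign.

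Of the cytokine and inflammatory targets, all 19 had a named probe and 18 were tested. None of the 18 passed the limma test, and their median was 0.10. An unadjusted p under 0.05 was found for 5 of the 18, where 21.6% of all genes had one. The chemokine gene CCL5 read 3.72 and 3.77 on the low-gain arrays, against 2.83 and 2.90 on the high-gain arrays (0.88 ± 0.10, limma adjusted p = 0.115), and its other probe gave 0.72. PTGS2, the inducible cyclooxygenase gene, differed by 0.72 ± 0.15, IL1B by 0.57 ± 0.16 and CCL4 by 0.49 ± 0.11. In contrast to the other 4 lists, more of these genes had a higher than a lower mean in low gain (12 of 18), a difference between lists that was not tested. Over all tested probes 47.3% had a lower mean. The sign differed between probes for TNF (0.19, other probe -0.63) and NOS2 (-0.16, other probes -1.09 to 0.16). Of the cytosolic sensors, 7 of 9 genes had a named probe and 6 were tested, 0 passed and 0 had an unadjusted p under 0.05. They had a median of -0.06, and MAVS (-0.44 ± 0.30), DHX58 (-0.30 ± 0.12), IFIH1 (0.12 ± 0.10) and TMEM173 (-0.10 ± 0.18) had the largest differences in size. The MAVS value rests on high-gain array a, without which it was -0.03, and TMEM173 was then 0.03.

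**Figure D3:**
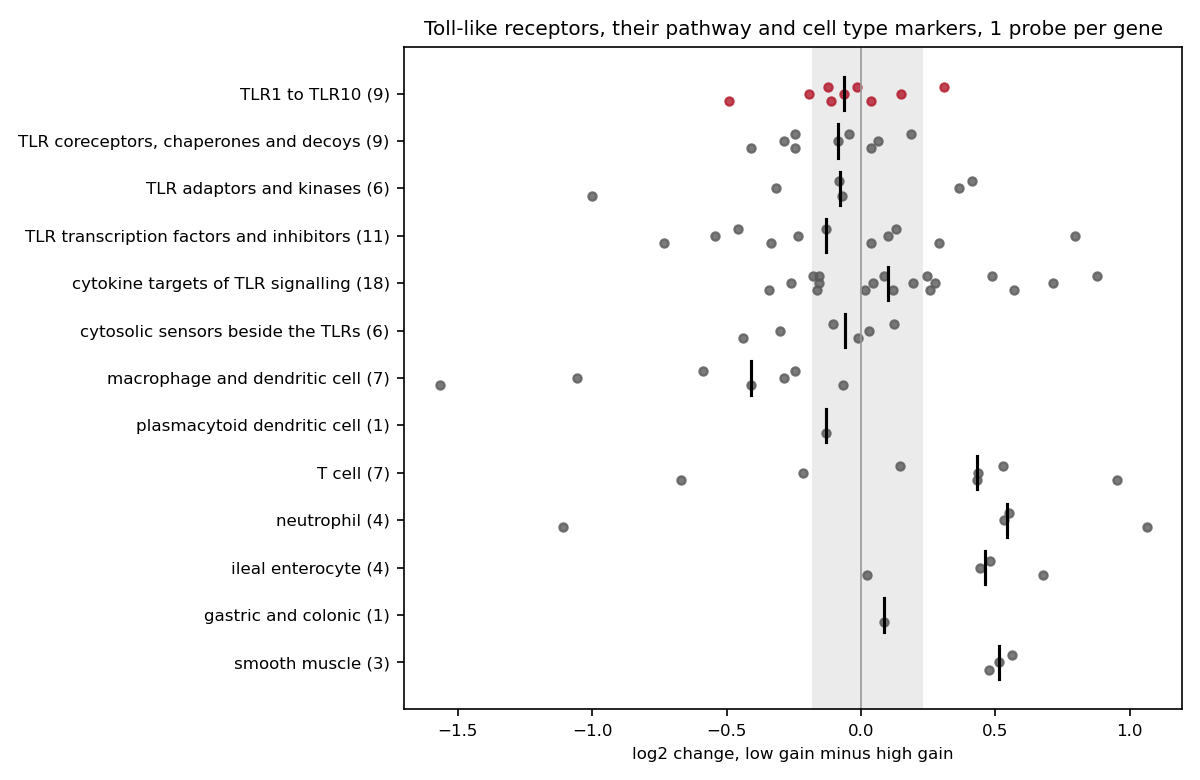
Each point is 1 gene, read by its probe of highest mean signal, with its log2 difference (low gain minus high gain) on the horizontal axis, and black bars are list medians. The macrophage and dendritic cell row and its median include SIGLEC1, which was tested only through the high-gain group. Rows are the TLR genes (red), the 5 pathway lists and the cell type marker lists other than that of B cells, with the number of genes tested in brackets; the grey band is the interquartile range of 2158 genes, and no gene shown passed the limma test.

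Markers of cells that carry TLRs were described beside these values, and none of them passed the limma test. Of 12 macrophage and dendritic cell markers 7 were tested, and 6 (CD1.1, CD80, CD163, CD86, CD14 and AIF1) were well above background on every array. For these 6 both low-gain arrays were below both high-gain arrays, where 29.2% of genes were so. CD14 is also in the coreceptor list. The other AIF1 probe gave 0.002, while the other probes of the remaining 5 had a lower mean in low gain. SIGLEC1 was lower too, but it was well above background on 1 of the 2 low-gain arrays. It was thus tested only through the high-gain group, and its direction adds no support. The other 6 differed by -1.06 (CD1.1) to -0.07 (AIF1), and 0 of the 7 passed. The summed signal of the 7 on the log2 scale was 4.53 and 4.55 on the low-gain arrays against 4.75 and 4.73 on the high-gain arrays. Of the B cell markers reported here, CD79A differed by -0.31 ± 0.13 (-0.19 without high-gain array b) and FCER2 by -0.62 ± 0.13. FCER2 was well above background on 1 of the 2 low-gain arrays, so it too was tested only through the high-gain group. These 2 genes do not give a direction for the whole list. A summed signal is led by the brightest probes, and the part of these cells in the TLR values was not tested. In bulk tissue, fewer cells of a type and less RNA per cell cannot be told apart.

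Within the other marker lists, genes differed in both directions for T cells and neutrophils. Of 7 T cell markers 5 had a higher mean in low gain (median 0.43), with a summed signal of 3.75 and 3.77 on the low-gain arrays against 4.20 and 4.06 on the high-gain arrays. CD247, a chain of the T cell receptor complex, differed by -0.67. Of the 4 neutrophil markers tested of 8, S100A8 (1.06), S100A9 (0.55) and S100A12 (0.53) had a higher mean in low gain. NCF1 (-1.11) had a lower mean, and S100A9 differed by 0.34 without low-gain array a. Levels of S100A8 (-4.36 and -3.93) and S100A9 (-4.38 and -4.74) on the high-gain arrays were low, which limits what these genes can show. The summed signal of the 4 was -0.06 and 0.05 on the low-gain arrays, against 0.96 and 0.49 on the high-gain arrays. The 4 enterocyte markers had a median of 0.46 and summed signals of 9.32 and 9.37 on the low-gain arrays, against 9.05 and 9.23 on the high-gain arrays. Groups were apart with low gain higher for 3 of them, while FABP6 differed by 0.02 ± 0.12 with overlapping groups. The 3 tested smooth muscle markers of 6 had a median of 0.51, with 7.89 and 7.89 on the low-gain arrays against 7.36 and 7.42 on the high-gain arrays. That median is the value of DES, whose 2 other probes gave -0.34 and -0.02, while the other CNN1 probe gave 0.45. Of plasmacytoid dendritic cell markers only IRF7 of 6 was tested (-0.13 ± 0.10), so these cells were hardly measured. None of these markers passed the limma test.

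For the 5 TLR genes whose representing probes had groups apart, the most alike profiles were sought among 78 other genes of the lists. Likeness was the root mean square difference of the 4 array values after each probe's own mean was removed, and 4 arrays make it a description only. Closest to TLR2 were CXCL10 (0.0385), CXCL8 (0.0596) and CD2 (0.0743). Closest to TLR9 were CD80 (0.0814), NFKB1 (0.0857) and FCER2 (0.0885). FCER2 was tested only through the high-gain group, so its likeness to TLR9 adds no support. TLR4 was closest to IRF7 (0.0433), CHUK (0.0458) and CXCL2 (0.0573), and TLR7 to IL1A (0.0328), IRF7 (0.0344) and NOS2 (0.0440). TLR3, represented by probe A_72_P471206, was closest to CCL3L1 (0.0462), CXCL8 (0.0563) and IRF1 (0.0643).

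The directions of TLR1, TLR2, TLR3, TLR4, TLR7 and TLR9 were the same in all 14 alternatives, in part because another filter, the intensity trend and the block leave the differences as they are. Without low-gain array a, the array with the most variable repeat spots, 0 of the 13 probes passed, where 36 of all tested probes did. The difference was then 0.28 for TLR2, 0.32 for TLR3 probe A_72_P303279 and -0.55 for TLR9. The largest moves were those of the dim probes: TLR4 probe A_72_P444577 ran from -1.13 to -0.10 and TLR8 from -0.35 to 0.22 over the alternatives.

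**Figure D4:**
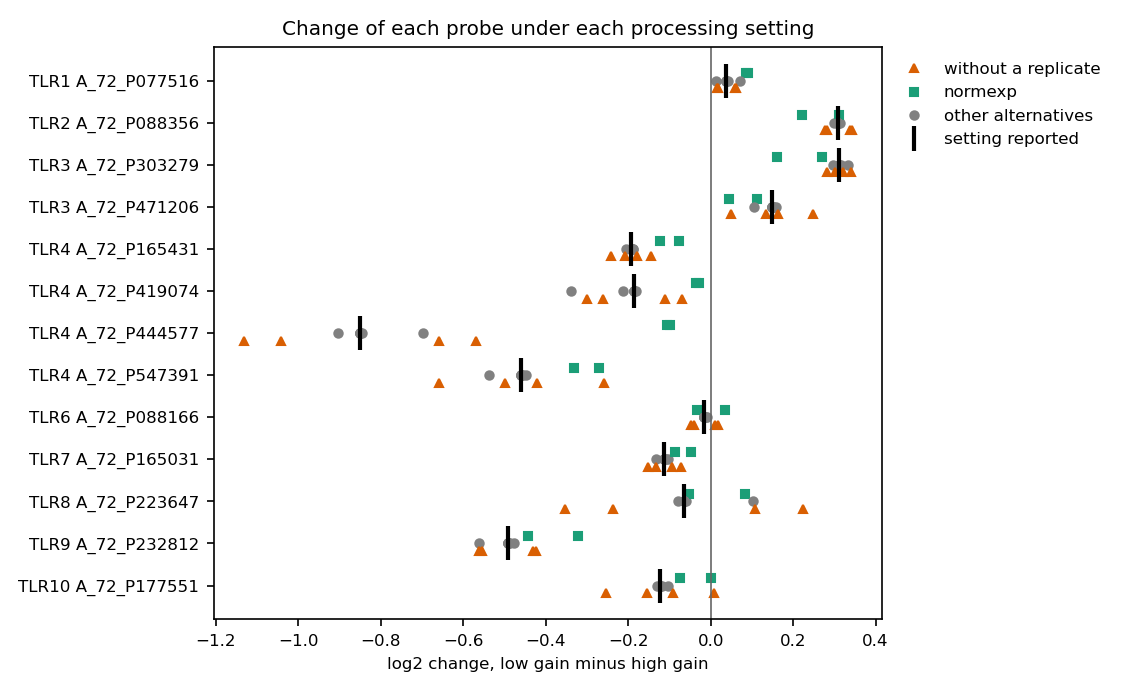
Log2 differences (low gain minus high gain, horizontal axis) of the 13 probes under the reported setting (black bars) and under 14 alternatives each: leaving out 1 array (triangles), normexp background correction (squares) and the others (circles). TLR1, TLR2, TLR3, TLR4, TLR7 and TLR9 keep their sign throughout, while TLR6, TLR8 and TLR10 cross 0 in at least 1 alternative.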

How the data were processed

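The authors deposited scanner files with spot intensity values, which per the file headers came from Agilent Feature Extraction (version 10.7.3.1). The software subtracts background to give its processed signal. A table of log2 values of unstated processing was deposited by the authors too and served as an alternative. Against log2 processed signal, spots well above background had slopes of 1.00 to 1.01 and correlations of 0.984 to 0.999 on the same array. Genes were not centred in it, the direction was not turned, and its medians per column were 5.62 (low-gain a), 5.59 (low-gain b), 5.67 (high-gain a) and 5.60 (high-gain b).

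Here log2 processed signal was set relative to each array's 75th percentile, taken over the spots that were not controls. Outlier spots were left out, repeat spots averaged and 48 probes with a missing value dropped. No TLR spot was an outlier or saturated, and each TLR probe had 1 spot. The test was limma 3.58.1 (lmFit, eBayes) in R 4.3.3, checked on simulated data. Of 5779 probes with a RefSeq accession 5461 were named (12.5% of all probes), so other TLR probes may stay unnamed. No coordinates are given, because no build is named in the files. All TLR probes were described. Of each pathway list, up to 4 genes with the largest absolute change were named, and HSP90B1 and CNPY3 were added after their values were seen. A further B cell marker is not reported here. The members and lists were chosen with earlier results of these data known. Precision is limited throughout by having 2 arrays per group.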

Additional observations from a re-analysis of the deposited data

How the results depend on the processing

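None of the 13 TLR probes passed the limma test in any of 14 alternatives (quantile or median scaling, 2 forms of normexp, 3 other filters, the intensity trend, the authors' deposited values, the replicate block and leaving out each array). Of 182 values, 9 changed sign. The 3 other filters, the intensity trend and the block leave the differences as they are, so no sign could change there. TLR6 went to 0.0339 and TLR8 to 0.0828 with normexp and bright backgrounds replaced, TLR8 to 0.102 with the authors' deposited values, and TLR10 to 0.00145 with normexp on the median signal. Leaving out 1 array gave -0.0484 to 0.0177 for TLR6, -0.354 to 0.224 for TLR8 and -0.253 to 0.00836 for TLR10. The count over all probes, 80 as reported, was 163 with median scaling, 1043 with normexp and bright backgrounds replaced, 1250 with the intensity trend, 33 with another detection flag, 12 with no filter and 0 with signal required on all 4 arrays, with normexp on the median signal or with the replicate block (where TLR9 had an adjusted p of 0.346). It was 36 and 37 without low-gain array a or b and 0 without either high-gain array (3071 and 5662 at an unadjusted p under 0.05). At an unadjusted p under 0.05 the first 3 settings with 0 calls had 6071, 0 and 4703 probes in the same order, and 4, 0 and 1 TLR probes. The a minus b differences of the 2 groups correlated at -0.04 over probes. That value cannot show whether arrays of the same letter shared a batch, and the labels do not say. Local backgrounds over 2 times the array's median were found at 36 spots of low-gain array a and 29 of high-gain array b, and at 0 on the others (controls left out). Of pathway genes, 0 passed in the reported setting, 4 with normexp and bright backgrounds replaced (CCL5, IKBKB, JUN and TRAF6), 2 with the intensity trend (CCL5 and IKBKB) and 1 when each gene's probes were averaged (CCL5). These genes were singled out after their values were seen. The cause of these changes was not tested. Leaving out each array for the genes of the lists, and both normexp forms, were added after the data were seen, the normexp forms because the files hold no mean signal for the planned form, which was not run. Low signal limits what TLR8 and the 2 dim TLR4 probes can show.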

Other observations

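TLR4, its partner LY96, and CD14 and LBP, which bring lipopolysaccharide to them, are 4 genes read by 11 probes. All 11 probes had a lower mean in low gain, where 47.3% of all tested probes did. This grouping was made after the values were seen, probes of 1 gene share their source, and 0 of the 11 passed the limma test (lowest adjusted p = 0.194). Both low-gain arrays were below both high-gain arrays for 9 of the 11 probes, where 26.9% of all tested probes were so, the exceptions being LBP (-0.04 ± 0.18) and TLR4 probe A_72_P419074. The LBP difference was 0.05 without low-gain array a and 0.15 without high-gain array a, against -0.14 and -0.24 without low-gain and high-gain array b. Its direction thus depends on single arrays. The second CD14 probe read -4.40 and -4.02 on the low-gain arrays, against -2.83 and -3.38 on the high-gain arrays, a difference of -1.11 ± 0.25, while the brighter one differed by -0.25. The signal of this second probe was low, and high-gain array a was its highest. The 11 probes also include the 2 dim TLR4 probes, A_72_P444577 and A_72_P419074. The 4 LY96 probes differed by -0.40 to -0.18.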
